A study of Mus musculus with 24 samples.

Results

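RNA was compared between lung memory B cells carrying the surface proteins CCR6 and CD69 and memory B cells in circulation, both from mice labelled SCAP cKO. The comparison takes the 4 lung CCR6+CD69+ libraries and the 4 circulating libraries of that genotype, 8 of the 24 libraries of the series, with 2 libraries per side in each of 2 batches. Members were chosen from the labels alone. SCAP cKO mice had the genotype SCAP fl/fl hCD20-TamCre, and the WT mice, which enter here for comparison, were SCAP +/+ hCD20-TamCre. Both genotypes therefore carried the Cre, a tamoxifen-inducible recombinase driven in B cells by human CD20 sequences. Every mouse was given house dust mite extract intranasally and met that allergen again 6 weeks later, with SCAP deleted before the second exposure. The sorted cells are called csMBC in the labels, which name a lung B cell as the source of every library, the circulating ones included. Age, sex and strain background are not given in the sources used here. Nothing states whether replicates came from separate animals, so the p-values measure the spread between these libraries, which may be technical. WT lung CCR6+CD69+ and WT circulating libraries (4 of each) and the 8 lung CCR6-CD69- libraries, 4 per genotype, entered the shared model.

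Memory B cells persist after an infection or allergen exposure and become antibody-secreting cells when they meet the antigen again. Some stay in the lung as resident cells. CD69 holds lymphocytes in tissue by opposing the sphingosine-1-phosphate receptor that guides exit, and CCR6 is a chemokine receptor of cells near epithelium. SCAP escorts the transcription factors SREBP1 and SREBP2 out of the endoplasmic reticulum when sterols are low, after which they switch on genes for the synthesis and uptake of cholesterol and fatty acids. B cells also display peptides on MHC class II molecules to T helper cells, with the invariant chain CD74 and the H2-DM and H2-O proteins governing which peptides are loaded.

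Total counts ran from 2081557 to 4181963 in the lung CCR6+CD69+ libraries and from 957610 to 2092658 in the circulating ones, and 5645 to 7063 and 4610 to 7111 genes were detected. Levels below are CPM (counts scaled to 1e6 per library) after trimmed-mean scaling of library size, a scaling chosen for the printed levels after unscaled values had been seen. On this scale 3 counts, the limit that a count of 0 allows, came to 0.768 to 1.29 CPM in lung and 1.19 to 4.84 CPM in circulating libraries, for counting error only. Replicates 1 and 2 of each group were batch 1, and replicates 3 and 4 were batch 2. The share of counts from ribosomal protein genes was 10.7 to 13.7% in the batch 1 libraries of these groups and 2.68 to 3.71% in batch 2. Pearson's r of log2 CPM across genes between replicates was 0.708 to 0.790 in lung and 0.577 to 0.721 in circulating libraries (genes are not independent replicates).

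Scap, the targeted gene, had 173, 46.6, 41.0 and 89.9 CPM in the lung libraries, against 202, 294, 374 and 113 CPM in the circulating libraries. The groups overlapped, and the gene did not pass the test (log2 fold change -1.51 ± 0.95, adjusted p 0.496). It was no lower in the libraries labelled SCAP cKO than in WT, where it averaged 80.9 ± 26.9 CPM in WT lung and 99.1 ± 71.6 CPM in WT circulating libraries (SD, n = 4 each). The counts cover whole genes and the labels do not give the deleted exons, so they do not check the deletion. Cd69, whose protein was used in the sort, had 1286, 781, 1507 and 1093 CPM in the lung libraries, against 832, 652, 325 and 1104 CPM in the circulating libraries. Its groups overlapped as well (log2 fold change 0.65 ± 0.56, adjusted p 0.644). Ccr6 is not analysed here. The B cell genes Ms4a1 and Pax5 were counted in all 8 libraries, at 439 CPM or more.

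By edgeR's adjusted test more genes fell than rose in the lung cells, while more genes lay wholly above the circulating libraries than wholly below them. Of 6779 genes tested, 104 (1.53%) passed edgeR's quasi-likelihood test at an adjusted p under 0.05 (Benjamini-Hochberg over all genes tested, batch as a covariate). Among them 5 rose in lung CCR6+CD69+ libraries (0.0738% of genes tested) and 99 fell (1.46%), and the median log2 fold change over all genes was -0.01. The rises were H2-DMb2, H2-Eb1 and Cd74 of MHC class II presentation, Egr2 and Rasgrp3. The falls were led by markers of natural killer cells and of plasmacytoid dendritic cells, which together made up 27 of the 99. Another 63 falls were on none of the 25 gene lists described here. All 4 lung libraries lay beyond all 4 circulating ones in the direction of the call for 74 of the 104 genes. Over all genes tested, the lung libraries lay above the circulating ones for 4.19% and below them for 2.68%. For 103 of the 104 genes the batch means differed in the same direction in both batches, the exception being Il12rb2. The genes were called on these same libraries, so this is no replication across batches. Batch 1 alone gave 52 calls and batch 2 alone 15. The number of calls depended on libraries and on the model: DESeq2 called 488 (197 rises and 291 falls, so 40.4% were rises, against 4.81% by edgeR), limma voom called 144 (4 rises and 140 falls), and 867 genes had an unadjusted p under 0.05 (377 higher and 490 lower). Without lung replicate 1, 2 or 3 edgeR called 67, 64 and 64 genes.

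**Figure D1:**
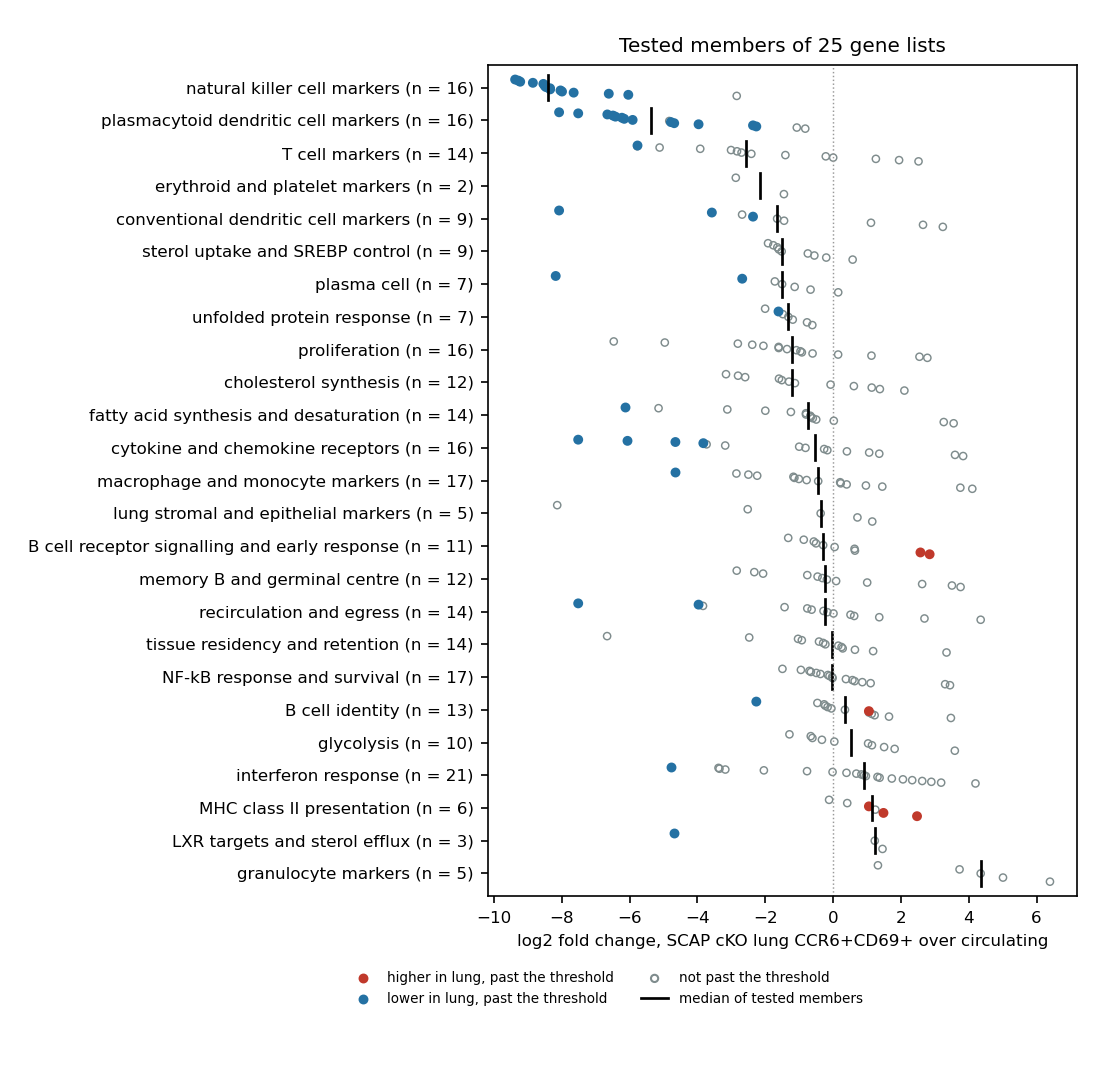
Log2 fold changes (lung CCR6+CD69+ over circulating, SCAP cKO) of the tested members of 25 gene lists, one row per list. Filled points passed the threshold (red higher, blue lower), open points did not, and black bars are medians. Members with 3 or fewer lung counts stand at the value for 3 counts, and Cxcr6 and Spry1, with 3 or fewer counts on both sides, are not drawn. Filled blue points gather in the natural killer row (14 of 16) and the plasmacytoid dendritic row (13 of 16), while 3 of 6 MHC class II members are filled red.

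Of the 6 tested genes of MHC class II presentation 3 rose in the lung cells and 0 fell. The log2 fold change was positive for 5 of the 6, with a median log2 fold change of 1.15. Start regions of 4 of them, not Cd74 or Ctss, are shown because class II genes share a known promoter element, the Y box. This is an inverted CCAAT motif (GATTGG) bound by NF-Y, which together with neighbouring boxes recruits the class II transactivator. The sequences run from 250 bases before to 50 bases after the start site (RefSeq, GRCm38.p6), in lower case with each match to GATTGG, or to CCAATC on the other strand, in capitals. H2-DMb2 lies at chr17:34144999-34145298 on the plus strand, H2-Eb1 at chr17:34305617-34305916 on the plus strand, H2-Oa at chr17:34092129-34092428 on the plus strand and H2-Aa at chr17:34287774-34288073 on the minus strand.
H2-DMb2: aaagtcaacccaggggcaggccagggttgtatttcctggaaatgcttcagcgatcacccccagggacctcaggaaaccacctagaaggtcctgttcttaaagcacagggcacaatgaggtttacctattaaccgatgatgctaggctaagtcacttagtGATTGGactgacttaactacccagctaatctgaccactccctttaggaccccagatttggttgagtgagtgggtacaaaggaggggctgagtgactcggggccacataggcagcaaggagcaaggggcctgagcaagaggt
H2-Eb1: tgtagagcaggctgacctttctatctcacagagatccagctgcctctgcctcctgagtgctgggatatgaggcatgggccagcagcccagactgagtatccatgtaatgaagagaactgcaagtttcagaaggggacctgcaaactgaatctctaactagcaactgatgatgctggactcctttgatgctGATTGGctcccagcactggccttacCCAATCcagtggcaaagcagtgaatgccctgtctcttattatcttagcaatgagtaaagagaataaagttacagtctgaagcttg
H2-Oa: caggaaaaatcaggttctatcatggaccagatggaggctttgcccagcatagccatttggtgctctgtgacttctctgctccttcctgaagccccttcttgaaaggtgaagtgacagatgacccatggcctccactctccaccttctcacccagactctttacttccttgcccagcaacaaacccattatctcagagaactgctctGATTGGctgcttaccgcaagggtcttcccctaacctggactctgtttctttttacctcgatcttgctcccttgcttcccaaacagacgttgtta
H2-Aa: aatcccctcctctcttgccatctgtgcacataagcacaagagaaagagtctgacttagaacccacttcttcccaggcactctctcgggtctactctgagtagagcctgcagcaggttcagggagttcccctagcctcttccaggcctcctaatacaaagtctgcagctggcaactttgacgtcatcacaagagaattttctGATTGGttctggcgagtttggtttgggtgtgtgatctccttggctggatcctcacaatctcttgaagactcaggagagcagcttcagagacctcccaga
The first match began 91 bases before the start site in H2-DMb2, 60 in H2-Eb1, 44 in H2-Oa and 49 in H2-Aa. GATTGG was found on either strand in 16.1% of 32851 RefSeq windows of 300 bases, and the longer CTGATTGG, present in H2-Eb1, H2-Oa and H2-Aa, in 4.1%. Cd74 and Ctss were not searched. A match is a description of letters and not a bound site. The windows come from another build than the counts and were matched by gene symbol.

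H2-DMb2 encodes the beta chain of H2-DM, which edits the peptides loaded on class II molecules. It had 2056, 1724, 1339.7 and 1156 CPM in the lung libraries, against 439, 434, 259.5 and 63.2 CPM in the circulating libraries. Every lung library exceeded every circulating one, by a log2 fold change of 2.48 ± 0.47 (SE; adjusted p 0.00056). The gene has a near-identical neighbour, H2-DMb1, so its counts are uncertain to the extent that reads were split between them. H2-Eb1, the beta chain of the I-E molecule, had 13947, 11639, 6214 and 4951 CPM in the lung libraries, against 5662, 6149, 1391 and 1443 CPM in the circulating libraries. The 2 batches differed in level, and the groups overlapped across batches but not within either (log2 fold change 1.49 ± 0.33, adjusted p 0.00397). Cd74, the invariant chain and the most counted gene of both batch 1 lung libraries, had 30526, 25644, 16624 and 15087 CPM in the lung libraries, against 13458, 14635, 8033 and 6517 CPM in the circulating libraries. Its groups did not overlap (log2 fold change 1.06 ± 0.27, adjusted p 0.0195).

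The other members of the list did not pass. H2-Aa, the alpha chain of the I-A molecule and named after its values were seen, had 8432, 7372, 3374 and 3056 CPM in the lung libraries, against 6604, 8713, 1954 and 1546 CPM in the circulating libraries, with overlap (log2 fold change 0.42 ± 0.31, adjusted p 0.569). H2-Oa, a chain of the H2-O protein that restrains H2-DM, had 1326, 596, 363 and 292 CPM in the lung libraries, against 486, 197, 175 and 152 CPM in the circulating libraries. Its lowest lung libraries were within the circulating range (log2 fold change 1.25, adjusted p 0.398). Ctss, the protease cathepsin S that cuts the invariant chain, had 1625, 1112, 893 and 1267 CPM in the lung libraries, against 2592, 2514, 646 and 884 CPM in the circulating libraries. It was the 1 member with a negative value, with overlap (log2 fold change -0.12 ± 0.43, adjusted p 0.936), and was named after its values were seen. H2-Eb1 and Cd74 were past the threshold in neither limma voom (adjusted p 0.343 and 0.257) nor a model with no batch term (0.330 and 0.255), and H2-DMb2 missed it in limma voom (0.239). Cd74 also lost its call without lung replicate 1 or 3 or circulating replicate 4 (0.0609 to 0.0860). The summed level of the list was 57910, 48090, 28810 and 25810 CPM in lung, against 29240, 32640, 12460 and 10610 CPM in circulating libraries.

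**Figure D2:**
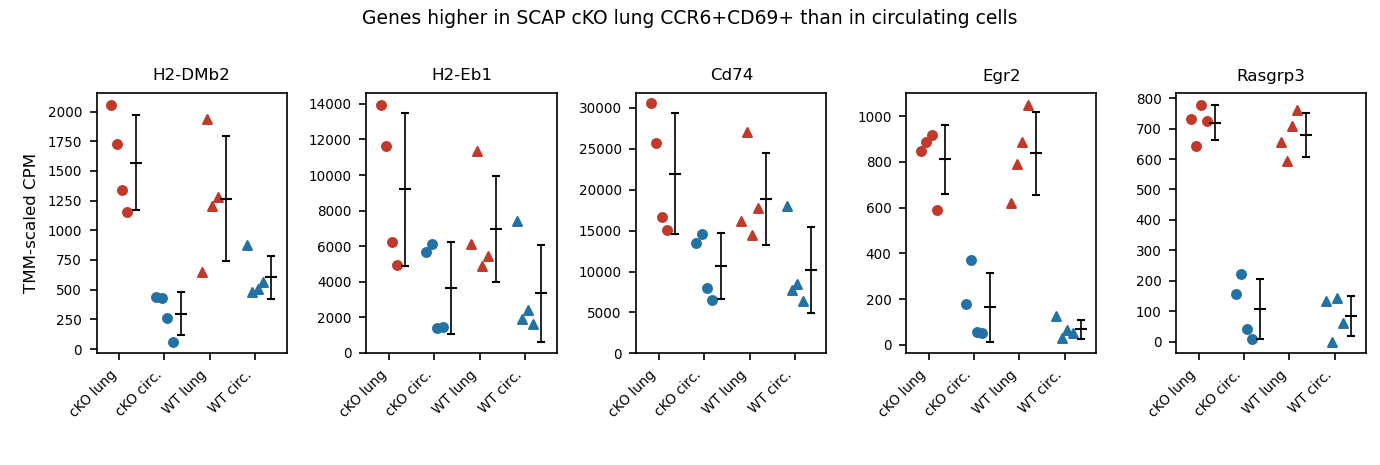
Levels (CPM) of H2-DMb2, H2-Eb1, Cd74, Egr2 and Rasgrp3 in each library of, from left to right, SCAP cKO lung CCR6+CD69+, SCAP cKO circulating, WT lung CCR6+CD69+ and WT circulating, with the mean ± SD (n = 4). Egr2 and Rasgrp3 stand higher in the lung in both genotypes. H2-DMb2 averages 1569 CPM in SCAP cKO lung and 299 CPM in SCAP cKO circulating libraries, against 1267 and 605 CPM in the WT groups.

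Egr2 and Rasgrp3 also rose, 2 of the 11 tested genes of B cell receptor signalling and early response, of which 0 fell (median log2 fold change -0.29). Egr2, a zinc finger factor switched on by antigen receptor signals, had 847, 886, 919 and 591 CPM in the lung libraries, against 177, 371, 55.6 and 51.3 CPM in the circulating libraries. Rasgrp3, which activates Ras downstream of the receptor, had 733, 643, 778 and 725 CPM in the lung libraries, against 156, 221, 40.8 and 7.55 CPM in the circulating libraries. Neither gene's groups overlapped, and the lung values were close together while the circulating ones were lower in batch 2. The log2 fold changes were 2.58 ± 0.63, adjusted p 0.0115 for Egr2 and 2.85 ± 0.73, adjusted p 0.0241 for Rasgrp3. Egr2 lost its call in batch 1 alone (2.05, adjusted p 0.227) and in batch 2 alone (3.82, adjusted p 0.0999), where 2 libraries a side remain, and also without lung replicate 3 or circulating replicate 3 or 4 (0.0661 to 0.0706). Rasgrp3 lost it when any lung replicate (adjusted p 0.0529 to 0.0695) or circulating replicate 1, 3 or 4 (0.0583 to 0.125) was left out. Jun, another early gene and a subunit of the factor AP-1, had 599.7, 385, 262 and 491 CPM in the lung libraries, against 335, 2209, 449 and 1353 CPM in the circulating libraries, with overlap, and did not pass (-1.32 ± 0.47, adjusted p 0.2).

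B cell identity genes gave 1 rise (Cd74) and 1 fall (Spib) among 13 tested members, with a median log2 fold change of 0.35. At an unadjusted p under 0.05, 5 were higher and 1 lower, against 4 and 1 in DESeq2 and 0 and 1 in limma voom. The lung libraries lay wholly above the circulating ones for 4 members and wholly below for 0 (4.19% and 2.68% over all genes tested). Ms4a1, which encodes CD20, had 1523, 1668, 1542 and 1458 CPM in the lung libraries, against 891, 1181, 439 and 511 CPM in the circulating libraries. Its groups did not overlap, yet it did not pass (log2 fold change 1.06 ± 0.42, adjusted p 0.266). Fcrl5, an Fc receptor-like protein of memory B cells, had 153, 145, 143 and 136 CPM in the lung libraries, against 18.4, 30.7, 0 and 0.795 CPM in the circulating libraries. Every lung library lay above every circulating one (log2 fold change 3.76 ± 1.36, adjusted p 0.205), and 0 of the 12 tested memory and germinal centre genes passed in edgeR, against 5 at an unadjusted p under 0.05, 3 in DESeq2 and 1 in limma voom. The summed B cell identity level was 20210 to 38750 CPM in lung and 10140 to 26400 CPM in circulating libraries, overlapping across batches but not within either. As shares of unscaled counts the sums did not overlap, at 2.323 to 3.1% in lung and 1.219 to 1.708% in circulating libraries. Cd74 alone gave 15087 to 30526 CPM of the lung sums and 6517 to 14635 CPM of the circulating ones.

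Natural killer cell genes fell in the lung cells, almost to 0. Of 16 list members tested, 14 fell and 0 rose, with a median log2 fold change of -8.48 (-8.40 with members of 3 or fewer lung counts at the value for 3 counts). Over all genes tested 1.46% fell. Members near 0 in lung could pass the count filter only through other libraries, so the 0 rises carry little weight. Nkg7, a protein of cytotoxic granules, had 12.7, 7.94, 0 and 0 CPM in the lung libraries, against 1426, 2093, 389 and 500 CPM in the circulating libraries. Eomes, a T-box factor that natural killer cells need to mature, had 1.64, 1.54, 0 and 0 CPM in the lung libraries, against 23.0, 557, 449 and 750 CPM in the circulating libraries. The groups did not overlap for either gene, and replicate 1 was low for Eomes among the circulating libraries. Their log2 fold changes were -8.34 ± 1.10, adjusted p 1.09e-06 for Nkg7 and -9.37 ± 1.42, adjusted p 1.40e-05 for Eomes.

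Receptors of natural killer cells were nearly uncounted in the lung libraries. Ncr1, the activating receptor NKp46, had 2.46, 0.512, 0 and 0 CPM in the lung libraries, against 24.8, 381, 583 and 23.4 CPM in the circulating libraries (log2 fold change -8.34 ± 1.59, adjusted p 0.000636). Klrb1c, which carries the NK1.1 antigen, had 3 lung counts against 915 circulating ones, summed over 4 libraries each, a depth-scaled ratio of circulating over lung of 621 (95% counting interval 212 to 3017). The Ly49 receptor gene Klra1 had 2 against 880 counts, a ratio of 896 (95% counting interval 247 to 7410.3), and Klra7 2 against 548, a ratio of 558 (95% counting interval 154 to 4619). Such intervals cover counting error only. Klra3 had 0 lung counts against 144 in circulating libraries, all of them in replicates 2 and 3, and was at least 97.7-fold lower in lung, taking 3 counts over the group as the limit. Klra genes are near-identical copies, so how reads were shared among them is uncertain. Klra3 and the chemokine gene Xcl1 (5.34, 2.56, 0 and 0 CPM in the lung libraries, against 474, 147, 8.03 and 1.59 CPM in the circulating libraries) did not pass when same-numbered libraries were treated as pairs (adjusted p 0.112 and 0.0635). Klra3 lost its call when any lung replicate or circulating replicate 2 or 3 was left out (0.0549 to 0.193), and Xcl1 when any lung replicate or circulating replicate 1 was left out (0.0736 to 0.191).

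The summed natural killer level was 37.8, 81.7, 0.862 and 33.7 CPM in lung CCR6+CD69+ libraries, against 3729, 6291, 2766 and 2598 CPM in circulating libraries. It was 0 to 110 CPM in SCAP cKO lung CCR6-CD69- libraries, 33.8 to 74.2 CPM in WT lung CCR6+CD69+ and 1499 to 3177 CPM in WT circulating libraries. It was high in the circulating libraries of both genotypes and low in each lung group given here. In bulk libraries fewer cells of a type and less RNA per cell cannot be told apart. Of the natural killer falls, 12 of 14 also passed in WT. The part of natural killer RNA in any other fall or rise given here was not tested.

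**Figure D3:**
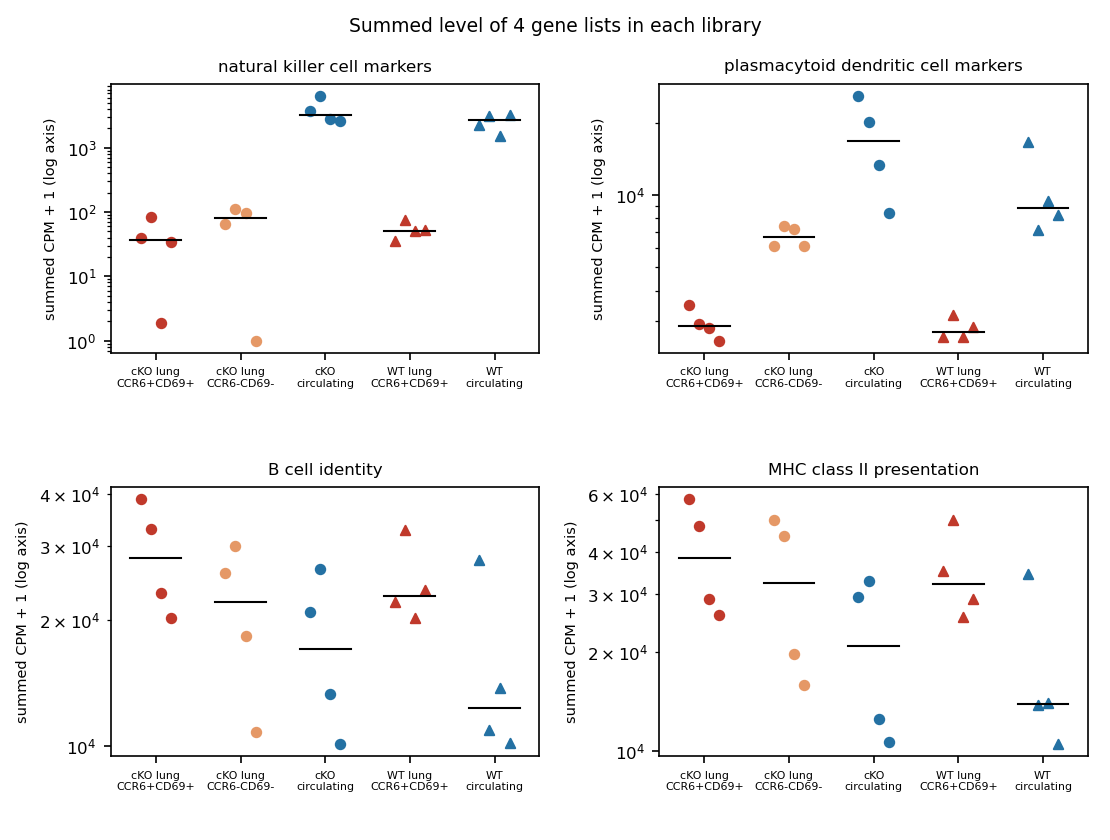
Summed CPM (plus 1, log axis) of natural killer, plasmacytoid dendritic, B cell identity and MHC class II list members per library. Groups run from SCAP cKO lung CCR6+CD69+, SCAP cKO lung CCR6-CD69- and SCAP cKO circulating to WT lung CCR6+CD69+ and WT circulating, with circles for SCAP cKO, triangles for WT and bars at medians. Natural killer medians are 35.7 CPM in SCAP cKO lung CCR6+CD69+ and 3247 CPM in SCAP cKO circulating libraries. Plasmacytoid medians are 2841 and 16730 CPM.

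Genes of plasmacytoid dendritic cells, the main producers of type I interferon, fell with them. Of 16 tested members 13 fell and 0 rose (median log2 fold change -5.37), against 1.46% falls over all genes tested, and 12 of the 13 fell in WT too. Ccr9, a chemokine receptor of these cells and of gut-homing lymphocytes, had 11.1, 7.94, 0 and 0 CPM in the lung libraries, against 912, 823, 883 and 90.6 CPM in the circulating libraries (-7.51 ± 1.65, adjusted p 0.0195). It did not pass when same-numbered libraries were treated as pairs (adjusted p 0.116) or when any lung replicate was left out (0.0610 to 0.0901). Atp1b1, a subunit of the sodium pump, had 14.0, 10.5, 17.2 and 3.09 CPM in the lung libraries, against 771, 602, 835 and 469 CPM in the circulating libraries. Tex2 had 15.2, 9.48, 2.59 and 8.96 CPM in the lung libraries, against 1126, 274, 864 and 355 CPM in the circulating libraries. Lung and circulating libraries were far apart for both, with log2 fold changes of -5.91 ± 0.75, adjusted p 2.27e-07 and -6.22 ± 0.80, adjusted p 2.30e-07.

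Transcription factors of this list that B cells also use were among the falls. Irf8 had 1089, 802, 806 and 594 CPM in the lung libraries, against 7021, 3104, 3362 and 3471 CPM in the circulating libraries, with no overlap and replicate 1 highest among the circulating libraries (-2.36 ± 0.38, adjusted p 2.79e-05). Spib had 716, 598, 211 and 365 CPM in the lung libraries, against 3095, 5797, 1207 and 393 CPM in the circulating libraries. Only circulating replicate 4 was within the lung range for Spib (-2.26 ± 0.49, adjusted p 0.00313), which lost its call without circulating replicate 2 (adjusted p 0.0553). Irf7, which drives interferon genes, had 66.1, 46.6, 0 and 43.9 CPM in the lung libraries, against 2023, 976, 795 and 466 CPM in the circulating libraries without overlap (-4.78 ± 1.02, adjusted p 0.00489). Tcf4, the factor that specifies plasmacytoid cells and is also made in B cells, had 573, 752, 1339 and 1144 CPM in the lung libraries, against 1761, 3299, 1421 and 1099 CPM in the circulating libraries and did not pass (-1.07, adjusted p 0.277). Dntt and Rag1, enzymes of antigen receptor gene assembly that plasmacytoid cells can retain, fell as well (-6.49 and -7.52, adjusted p 0.022 each), although most of the Dntt signal came from circulating replicate 1 (2.46, 3.07, 0 and 0 CPM in the lung libraries, against 595, 82.3, 1.24 and 1.99 CPM in the circulating libraries). Treated as pairs, Dntt and Rag1 did not pass (adjusted p 0.0748 and 0.0615). Both calls were also lost when any lung replicate (0.0691 to 0.120) or circulating replicate 1 (0.297 for Dntt and 0.146 for Rag1) was left out. The summed plasmacytoid level was 3481, 2892, 2791 and 2475 CPM in lung, against 25750, 20150, 13310 and 8372 CPM in circulating libraries, and 6100 to 7398 CPM in SCAP cKO lung CCR6-CD69- libraries.

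Among 14 T cell markers 1 fell and 0 rose, with a median log2 fold change of -2.55, and 5 were lower at an unadjusted p under 0.05, 3 in DESeq2 and 2 in limma voom. The fall was Cd4, a co-receptor of helper T cells that some dendritic cells also make, with 10.3, 6.15, 0 and 25.7 CPM in the lung libraries, against 450.5, 692, 1046 and 70.7 CPM in the circulating libraries (-5.78 ± 1.12, adjusted p 0.0011). The CD3 subunit gene Cd3e averaged 3.32 CPM in lung and 23.8 CPM in circulating libraries, and Cd3d averaged 3.0 and 17.1 CPM, each with a count of 0 in at least 1 library per side. The summed T cell level was 1135, 589, 527 and 507 CPM in lung, against 1830, 2033, 2550 and 952 CPM in circulating libraries, with overlap, and its part in the fall of Cd4 was not tested. Of 9 conventional dendritic markers 3 fell, namely Irf8, the lectin Clec10a (-8.08 ± 1.57, adjusted p 0.000817) and Sirpa, an inhibitory receptor of myeloid cells (-3.57 ± 0.82, adjusted p 0.00602). Clec10a and Irf8 are on the plasmacytoid list too. The list had a median log2 fold change of -1.65, and its summed level was 1397, 999, 1086 and 1082 CPM in lung, against 8674, 4677, 4164 and 3988 CPM in circulating libraries, without overlap. Sirpa did not pass with same-numbered libraries as pairs (adjusted p 0.0668) or without lung replicate 1 or 2 (0.0602 and 0.0704). Of 17 macrophage and monocyte markers 1 fell, the monocyte chemokine receptor Ccr2 (8.62, 4.10, 0.431 and 43.3 CPM in the lung libraries, against 14.7, 594, 398 and 407 CPM in the circulating libraries; -4.65 ± 1.05, adjusted p 0.00489), which missed the threshold without lung replicate 2 (adjusted p 0.0512). The list's summed level ranged from 134 to 3215 CPM in lung and from 686 to 4771 CPM in circulating libraries, and the alveolar macrophage receptor Marco had 22 counts in lung and 0 in circulating libraries. None of 5 granulocyte, 2 erythroid and platelet or 5 stromal markers passed in edgeR (3, 0 and 1 at an unadjusted p under 0.05, 2, 0 and 0 in DESeq2, and 0 in limma voom). All 5 tested granulocyte markers had positive log2 fold changes (median 4.35). Their 3 genes at an unadjusted p under 0.05 and 2 DESeq2 calls were all higher in lung. The granulocyte sums overlapped, at 36.2 to 1594 CPM in lung and 74.7 to 613 CPM in circulating libraries.

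Of 14 recirculation and egress genes 2 fell, Ccr9 among them, and 0 rose, with a median log2 fold change of -0.22. Ccr7, the receptor that guides cells to lymph node T zones, was higher in every lung library than in any circulating one (1242, 1266, 857 and 768 CPM in the lung libraries, against 637, 403, 257 and 335 CPM in the circulating libraries) without passing (1.36 ± 0.53, adjusted p 0.262). Off the lists and named for its small p, Selplg, which encodes the adhesion ligand PSGL-1 of rolling leukocytes, had 137, 343, 147 and 325 CPM in the lung libraries, against 2984, 1708, 2939.5 and 1836 CPM in the circulating libraries. It fell with every lung library below every circulating one (log2 fold change -3.32 ± 0.51, adjusted p 1.36e-05).

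Tissue residency and retention genes gave 0 calls among 14 tested in edgeR, with a median log2 fold change of -0.14 (-0.04 with sparse members at their limit). At an unadjusted p under 0.05 there were 5 (2 higher and 3 lower), and DESeq2 called 2 and limma voom 1. Rgs1, which damps chemokine receptor signals, had 1465, 1146, 1013 and 697 CPM in the lung libraries, against 559, 554, 209 and 578 CPM in the circulating libraries. The lung libraries were all higher, by a log2 fold change of 1.18 ± 0.48, adjusted p 0.282. Itgal, the alpha chain of the integrin LFA-1, was at -1.03, adjusted p 0.297.

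The chemokine gene Ccl4 fell with the smallest p of all genes tested. Ccl4, secreted by lymphocytes and myeloid cells, had 29.1, 22.0, 0 and 5.87 CPM in the lung libraries, against 2159.6, 1138, 490 and 318 CPM in the circulating libraries. Every lung library was below every circulating one (-6.45 ± 0.77, adjusted p 5.57e-08). Of 16 tested cytokine and chemokine receptors 4 fell and 0 rose, among them Ccr2, Ccr9 and Il18rap, a subunit of the interleukin-18 receptor (-6.06 ± 1.44, adjusted p 0.00993). The call for Il18rap was lost without lung replicate 1 or 2 (adjusted p 0.0709 and 0.0704). The 16 receptor genes had a median log2 fold change of -0.54.

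**Figure D4:**
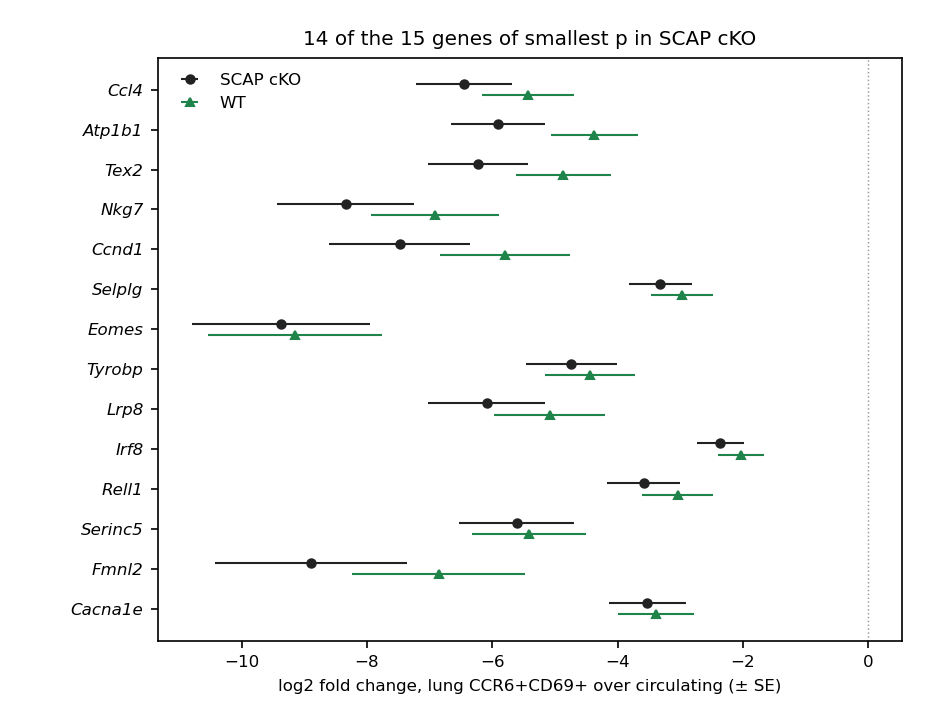
Log2 fold change (lung CCR6+CD69+ over circulating) ± SE of 14 of the 15 genes with the smallest p in SCAP cKO, with circles for SCAP cKO and triangles for WT. All 14 were lower in lung in both genotypes, from -2.36 for Irf8 to -9.37 for Eomes in SCAP cKO.

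Adapter and growth genes were also among the smallest p-values, a set chosen after values were seen. Tyrobp, the signalling adapter DAP12 of natural killer and myeloid receptors, had 48.0, 42.3, 13.8 and 31.2 CPM in the lung libraries, against 1312, 3141, 431 and 300.1 CPM in the circulating libraries (-4.74 ± 0.73, adjusted p 1.40e-05). Ccnd1, which encodes cyclin D1 of the early cell cycle, had 11.1, 6.92, 0.431 and 0.309 CPM in the lung libraries, against 475, 566, 453 and 358 CPM in the circulating libraries (-7.48 ± 1.12, adjusted p 9.94e-06). Lrp8, a receptor of apolipoprotein E and reelin, had 11.9, 41.0, 0 and 1.85 CPM in the lung libraries, against 840.3, 871, 386 and 839 CPM in the circulating libraries (-6.09 ± 0.93, adjusted p 1.79e-05). The circulating libraries were above the lung ones throughout for these 3 genes. Rell1, a membrane protein related to the TNF receptor RELT, had 111, 61.5, 164 and 146 CPM in the lung libraries, against 2034, 1396, 1089 and 524 CPM in the circulating libraries (-3.58 ± 0.59, adjusted p 4.09e-05). Serinc5, a membrane protein that restricts retroviruses, was at -5.61, the formin Fmnl2 at -8.89 and the calcium channel subunit Cacna1e at -3.53, with adjusted p of 4.11e-05, 0.000115 and 0.000139.

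Some of the largest falls rested on 3 or fewer lung counts and on few circulating libraries. Il12rb2, a chain of the interleukin-12 receptor, had 0 lung counts and was at least 650.3-fold lower, but its 958 circulating counts all came from replicates 3 and 4 of batch 2. Cd27, a TNF receptor family member of memory lymphocytes and natural killer cells, also had 0 lung counts and was at least 354-fold lower, with 18.4, 0, 156 and 99 CPM in the circulating libraries. Cd160, a receptor of natural killer cells, had 2 lung counts against 496, most of them in circulating replicate 2. The collagen receptor Ddr1 had 3 against 773, a ratio of 525 (95% counting interval 179 to 2550), and the Ras regulator Dab2ip 1 against 329, a ratio of 670 (95% counting interval 119 to 26542). Tnfsfm13, a read-through of the neighbouring Tnfsf12 and Tnfsf13, had 1 against 447 counts, and its reads cannot be assigned with certainty because it overlaps both genes. Of the 99 falls, 33 averaged under 1 CPM and 68 under 20 CPM in the lung. With same-numbered libraries as pairs, Il12rb2 and Cd160 did not pass (adjusted p 0.0645 and 0.104). When single libraries were left out, any lung replicate ended the calls for Cd27 (adjusted p 0.0673 to 0.119), Il12rb2 (0.0691 to 0.0954), Dab2ip (0.0704 to 0.0982) and Tnfsfm13 (0.0829 to 0.151). So did circulating replicate 1 for Cd27 (0.0599), 4 for Il12rb2 (0.0726), 2 for Dab2ip (0.128), and 2 or 4 for Tnfsfm13 (0.0786 and 0.0836). Cd160 lost its call without lung replicate 1 or 2 (0.0709 and 0.0883) or circulating replicate 2 (0.170), and Ddr1 without lung replicate 2 (0.0639) or circulating replicate 1 (0.141).

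Of 7 tested unfolded protein response genes, which serve folding in the secretory pathway, 1 fell and 0 rose. Hsp90b1, the chaperone GRP94 of the endoplasmic reticulum, had 856, 961, 1153 and 1318 CPM in the lung libraries, against 4944, 2805, 1856 and 2942 CPM in the circulating libraries. It fell without overlap (-1.61 ± 0.36, adjusted p 0.00489), and without circulating replicate 1 it missed the threshold (-1.22, adjusted p 0.0819). All 7 members had negative log2 fold changes (median -1.32), with Hspa5, the chaperone BiP, at -0.77, adjusted p 0.422, and the disulfide isomerases Pdia3 at -1.32, adjusted p 0.262 and Pdia6 at -1.19, adjusted p 0.317. The summed level was 2598, 2998, 3646 and 4116 CPM in lung, against 11450, 7020, 5401 and 8203 CPM in circulating libraries. Rrbp1, a ribosome-binding protein of the rough endoplasmic reticulum, fell (-2.57 ± 0.53, adjusted p 0.00165), as did Tmed2, a cargo receptor of the early secretory pathway (-1.91 ± 0.48, adjusted p 0.016), both named after their values were seen. The call for Tmed2 was lost without lung replicate 1, 2 or 3 or circulating replicate 1 (adjusted p 0.0516 to 0.163).

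Of 7 plasma cell genes 2 fell and 0 rose (median log2 fold change -1.50). Jchain, the joining chain of secreted IgA and IgM, had 106, 147, 86.2 and 142 CPM in the lung libraries, against 1570.3, 623, 266 and 606 CPM in the circulating libraries. The lung libraries were all lower (-2.68 ± 0.59, adjusted p 0.00578), though without circulating replicate 1 it missed the threshold (-2.03, adjusted p 0.0583). Sdc1, which encodes the plasma cell marker CD138, had 0.410, 1.28, 0 and 0 CPM in the lung libraries, against 4.60, 189, 0 and 262 CPM in the circulating libraries and overlapped (-8.18 ± 2.09, adjusted p 0.0195). With same-numbered libraries as pairs its adjusted p was 0.0522, and its call was lost when any lung replicate (0.0512 to 0.106) or circulating replicate 2 or 4 (0.0558 and 0.0759) was left out. Jchain and Sdc1 both missed the threshold in limma voom (adjusted p 0.479 and 0.1545), and Jchain with only the SCAP cKO libraries (0.0619). Jchain is also made by plasmacytoid dendritic cells, and the part of the summed plasmacytoid level given above in its fall was not tested.

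The lists of genes under SREBP control gave 1 call. Of 12 cholesterol synthesis genes 0 passed in edgeR (3 lower at an unadjusted p under 0.05, 2 in DESeq2 and 1 in limma voom), and 8 of 12 had negative log2 fold changes (median -1.21). Pmvk, the phosphomevalonate kinase of the pathway, had 8.62, 35.3, 54.7 and 43.9 CPM in the lung libraries, against 736, 621, 308 and 96.2 CPM in the circulating libraries. Its groups did not overlap, and it did not pass (-3.15 ± 0.95, adjusted p 0.0812). Hmgcs1, which makes the precursor of mevalonate, had 123, 65.3, 85.3 and 114 CPM in the lung libraries, against 84.6, 434, 389 and 273 CPM in the circulating libraries, with overlap (-1.59 ± 0.90, adjusted p 0.442). Fdps was at -2.59, adjusted p 0.262. The fatty acid synthesis and desaturation list had 1 fall and 0 rises among 14 genes (median -0.73). Fads2, the delta-6 desaturase, had 2.46, 4.10, 0 and 0 CPM in the lung libraries, against 282, 142, 38.9 and 2.78 CPM in the circulating libraries (-6.13 ± 1.55, adjusted p 0.0181). The call for Fads2 was lost without lung replicate 1, 3 or 4 (adjusted p 0.0736 to 0.0989), without circulating replicate 1 (0.0583) and with no batch term (0.0523). Scd2, a stearoyl-CoA desaturase and SREBP target, had 186, 98.1, 121 and 96.1 CPM in the lung libraries, against 508, 802, 416 and 312 CPM in the circulating libraries. Lung libraries were all lower for Scd2, which did not pass (-1.996 ± 0.65, adjusted p 0.125).

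Of 9 genes of sterol uptake and SREBP control 0 passed in edgeR, DESeq2 or limma voom, with 1 at an unadjusted p under 0.05 and a median log2 fold change of -1.51. Insig1, which anchors SCAP when sterols are plentiful, was at -1.60 ± 0.82, adjusted p 0.405. Npc1, which exports cholesterol from lysosomes, was at -1.76 ± 0.60, adjusted p 0.161. Among 3 targets of the sterol-sensing receptor LXR, 1 fell: Pltp, a phospholipid transfer protein that is also on the plasmacytoid list, had 35.7, 13.6, 0 and 18.9 CPM in the lung libraries, against 698, 1117, 242 and 76.3 CPM in the circulating libraries (-4.68 ± 0.94, adjusted p 0.00133). Abca1, the cholesterol exporter, had 261, 480.2, 1004 and 647 CPM in the lung libraries, against 424, 132, 156 and 167 CPM in the circulating libraries, with circulating replicate 1 within the lung range (1.23 ± 0.56, adjusted p 0.347). The summed cholesterol synthesis level was 604, 624, 700 and 929 CPM in lung, against 2299, 1383, 1190 and 1466 CPM in circulating libraries, with no overlap on this scale. In WT it was 950, 1110, 996 and 953 CPM in lung, against 1502, 756, 1130 and 1151 CPM in circulating libraries, with overlap. As shares of unscaled counts the SCAP cKO sums overlapped too, at 0.0483 to 0.107% in lung and 0.0895 to 0.176% in circulating libraries.

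**Figure D5:**
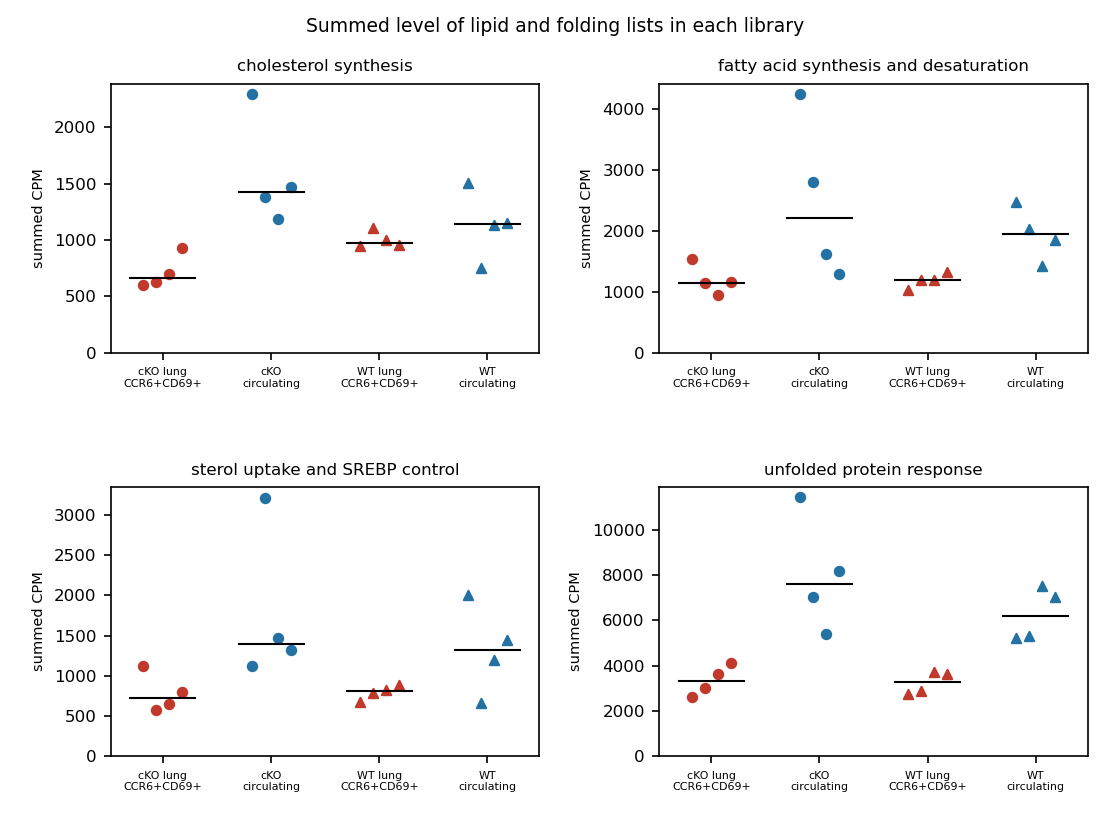
Summed CPM per library of cholesterol synthesis, fatty acid synthesis, sterol uptake and SREBP control, and unfolded protein response genes in SCAP cKO lung CCR6+CD69+, SCAP cKO circulating, WT lung CCR6+CD69+ and WT circulating libraries, with bars at medians. Cholesterol synthesis medians are 662 CPM in SCAP cKO lung and 1425 CPM in SCAP cKO circulating libraries, against 974 and 1141 CPM in WT.

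The remaining lists gave 1 call among them. Of 21 interferon response genes 1 fell, Irf7, and 0 rose (median log2 fold change 0.91). Proliferation genes gave 0 calls of 16 in edgeR and limma voom and 1 in DESeq2 (1 at an unadjusted p under 0.05, median -1.22), and their sum was 823 to 1017 CPM in lung and 1088 to 2243 CPM in circulating libraries. Glycolysis genes gave 0 of 10 in edgeR and limma voom and 1 in DESeq2 (1 at an unadjusted p under 0.05, median 0.54). NF-kB response and survival genes gave 0 of 17 in edgeR and DESeq2 and 1 in limma voom (1 at an unadjusted p under 0.05, median -0.03). Off the lists, Bcl2l11, which encodes the cell death protein BIM, fell (-2.26 ± 0.53, adjusted p 0.00736), and so did Fth1, the ferritin heavy chain (-1.68 ± 0.35, adjusted p 0.00174), both named after values were seen. The call for Bcl2l11 was lost without lung replicate 2 or 3 or circulating replicate 2 (adjusted p 0.0512 to 0.0871), and that for Fth1 with no batch term (0.0525).

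The same lung and circulating populations of WT mice gave 80 calls (1.18% of genes tested), 11 higher (0.162%) and 69 lower (1.02%). No library was shared with the SCAP cKO comparison, though both came from the same fit with a shared batch term and estimate of spread. Of the calls 63 were common, which is 60.6% of the SCAP cKO calls and 78.8% of the WT calls: Egr2, Rasgrp3 and 61 falls. All but 1 of the 104 SCAP cKO calls had the same sign in WT, the exception being Tnfsfm13. The share with the same sign over all genes tested was not counted. The falls had a median log2 fold change of -6.41 in SCAP cKO and -4.86 in WT. These genes were chosen on their SCAP cKO values, so the medians are no test of a difference.

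The test of the difference between the genotypes called 0 of 6779 genes in edgeR (0%; smallest adjusted p 0.540) and 0 in limma voom, and 30 in DESeq2. At an unadjusted p under 0.05 there were 367 genes (5.41% of genes tested), 13 of them among the 104 calls. The 104 were chosen on SCAP cKO values that also enter the difference, so the 13 are no test of enrichment. H2-DMb2 averaged 1569 ± 402 CPM in lung and 299 ± 178 CPM in circulating libraries in SCAP cKO, against 1267 ± 529 CPM in WT lung and 605 ± 183 CPM in WT circulating libraries (SD, n = 4 each). The WT log2 fold change was 1.10 ± 0.45, adjusted p 0.282, and the difference was 1.38 ± 0.63 (unadjusted p 0.0316). H2-Aa ran the other way, with a log2 fold change past the threshold in WT (1.34 ± 0.31, adjusted p 0.00999) and a difference of -0.92 ± 0.44 (unadjusted p 0.0398). Pmvk was at -3.15 in SCAP cKO and -0.46 in WT (difference -2.69 ± 1.23, unadjusted p 0.0331). Tns1, a focal adhesion protein, was at -7.01 in SCAP cKO and -1.62 in WT (unadjusted p 0.00192), and Enpp5 at -8.72 and -0.39 (unadjusted p 0.00685). Enpp5 had only 3 counts over the WT lung libraries and 1 over the WT circulating ones, so its WT value does not measure a change. The SCAP cKO call for Enpp5 was lost when any lung replicate or circulating replicate 2 was left out (adjusted p 0.0585 to 0.106). None of these differences passed the adjusted test, so no gene is shown to be particular to the SCAP cKO comparison.

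Genes near the threshold show what the call separates. Just inside it were Glcci1 (-3.29 ± 0.90, adjusted p 0.0371), Tnfrsf9, which encodes the costimulatory receptor 4-1BB (-6.52 ± 1.82, adjusted p 0.0428), and Fyb2 (2 lung counts against 171, adjusted p 0.0494). With same-numbered libraries as pairs none of these 3 passed (adjusted p 0.0645, 0.147 and 0.177). Each was lost without several single lung libraries. Glcci1 and Fyb2 were also lost without several single circulating libraries, and Tnfrsf9 without circulating replicate 4 (0.0574 to 0.211 for all these losses). Just outside were I830077J02Rik (-6.13 ± 1.72, adjusted p 0.051), the receptor phosphatase Ptprj (-2.53 ± 0.72, adjusted p 0.0513) and 4930581F22Rik (-6.33 ± 1.80, adjusted p 0.0513). Zeb2, a transcription factor of effector lymphocytes and plasmacytoid cells, was lower in every lung library (76.3, 97.6, 176 and 136 CPM in the lung libraries, against 448, 760.1, 787 and 191 CPM in the circulating libraries) and just missed the call (-2.32 ± 0.68, adjusted p 0.0613).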

How the data were processed

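PolyA RNA of sorted cells was sequenced in bulk, with a Zymo microprep RNA kit and an xGen broad-range library kit adapted for low input, per the labels' protocols. The values are raw whole-number counts by gene, as deposited by the authors, in 18470 rows with 1 column per library. FastQC, STAR, Salmon and build mm39 are named in the submitters' processing notes. Versions, settings, the tool that made the counts and whether it used strand are not given in the sources used here, so antisense and overlapping genes cannot be told apart. Some rows are not analysed here, so totals are over the rows analysed.

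All 24 libraries entered one fit in R 4.3.3 with edgeR 4.0.16: filterByExpr by group (6779 genes kept), trimmed mean of M values (TMM) scaling, group and batch as terms, and a robust quasi-likelihood F-test with Benjamini-Hochberg adjustment at 0.05. The biological coefficient of variation was 1.10, and the fit includes a SCAP cKO lung CCR6-CD69- library of 129025 counts and a WT circulating library of 356782. SE is the log2 fold change divided by the square root of F. Printed CPM are counts over TMM-scaled totals. On unscaled CPM, 364 genes lay wholly above and 163 wholly below in lung, against 284 and 182 on the printed scale. DESeq2 1.42.0, limma 3.58.1 (voom), other filters, scalings, models and left-out replicates were the alternatives. The test was tested on simulated data.

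The comparison, the 25 gene lists (510 genes, 308 with a row and 269 tested) and their members were chosen with earlier results of these data known. Named genes are Scap, Cd69 and SREBP targets, up to 12 of the largest rises and of the largest falls with a mean of at least 5 CPM in the higher group, up to 4 members with the smallest p per list, and the 3 genes nearest the threshold on each side. The 15 smallest p-values and 16 further genes were added after values were seen. Some genes that met these rules are not reported here. Same-numbered SCAP cKO lung and circulating libraries correlated at 0.115 to 0.135 in their deviations from group means, and at 0.0137 to 0.0511 from group and batch means. The number is not stated to mark a mouse, so the main fit has no pairs, and the paired fit is an alternative. Promoters are from RefSeq (GRCm38.p6), matched by symbol for the 4 MHC class II genes shown. Each of the 104 called genes had a RefSeq symbol, but their promoters were not otherwise examined.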

Additional observations from a re-analysis of the deposited data

Results flagged for a closer look

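In 34 of 290 sets of 4 libraries examined, 1 library stood apart from the other 3, with a gap, as a share of the set's range, above Dixon's 95% critical value. Of these, 10 were among lung CCR6+CD69+ libraries and the others among circulating ones. For normally distributed values chance gives such a gap in about 1 in 20 sets. Many sets here hold sparse counts with zeros, so that rate does not apply and the 34 cannot be set against it. In circulating replicate 1 the high values were Irf8 (7021 CPM), Dntt (595 CPM), Ddr1 (565 CPM), H2-Oa (486 CPM), Cd247 (434 CPM) and Abca1 (424 CPM). The conventional dendritic sum (8674 CPM) and the granulocyte sum (613.2 CPM) were highest in that library too. Irf8 is on the dendritic list, so its value and that sum are not separate observations.

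In circulating replicate 2 the high values were Cd160 (717 CPM), Dab2ip (287 CPM), Aldoa (257 CPM), Pf4 (37.1 CPM) and the sum of sterol uptake and SREBP control genes (3216 CPM, against 1116 to 1468 CPM in the other 3). In circulating replicate 3 Pax5 (1714 CPM), Crtam (92.1 CPM) and Ccne2 (85.3 CPM) were high, and Lrp8 (386 CPM), Rgs1 (209 CPM) and Serinc5 (205 CPM) were low. In circulating replicate 4 Tnfaip3 (1765 CPM), C1qc (184 CPM), Col3a1 (164 CPM) and Plk1 (116 CPM) were high and Ccr9 (90.6 CPM) low. Col3a1 and Crtam had 0 counts in the other 3 circulating libraries.

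In lung replicate 1 Eno1 (1056 CPM), Ifit2 (186 CPM), Cd247 (34.9 CPM), Plk1 (12.7 CPM), Tns1 (11.1 CPM), Ccne2 (1.64 CPM) and the T cell marker sum (1135 CPM) were high. In lung replicate 4 Csf3r (172 CPM), Fabp4 (36.5 CPM) and Elovl6 (11.1 CPM) were high. The source of these single high or low libraries was not tested.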

How the results depend on the processing

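Of the settings tried, those that moved the 104 SCAP cKO calls by over 1.5 times gave 488 genes in DESeq2, 52 in batch 1 alone, 15 in batch 2 alone, 69 with only the libraries compared, 213 without the 2 libraries under 500000 counts (42 higher and 171 lower), 63 with only the SCAP cKO libraries, and 67, 64 and 64 without lung replicate 1, 2 or 3. The fits without small libraries and with only SCAP cKO libraries were chosen after seeing the data. All 104 genes were among the DESeq2 calls, where 263 genes had no adjusted p. Leaving out each replicate gave 64 to 117 calls. With the replicate number as a block the count was 87 (82 shared) for SCAP cKO, 73 for WT and 0 for the difference. The calls that this pairing ended are given beside their genes, except Satb1 (adjusted p 0.0541), and it ended no other call of a named gene. Each of the 4 lung libraries correlated best with the circulating library of its own number, a hint from the data and not the design, and same-batch pairs of different number reached 0.0531 to 0.118. The share of rises was 4.81% in the fit as reported, 40.4% in DESeq2, 26.7% in batch 2 alone and 19.7% without the 2 small libraries. The median log2 fold change of all genes shifted to 0.18 in limma voom, 0.35 with the block, 0.15 in batch 1 and 0.27 in batch 2.

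For WT, where the fit as reported called 80, DESeq2 called 284, limma voom 285, a model with no batch term 46, batch 1 alone 34, batch 2 alone 3 and the fit without the 2 small libraries 141, and left-out replicates gave 42 to 79 (49 without lung replicate 1 and 42 without lung replicate 4). For the difference DESeq2 called 30 and batch 1 alone 1. Natural killer members called were 5 in batch 1, 2 in batch 2 and 6 with only the libraries compared, against 14; plasmacytoid members were 9, 6 and 11, against 13. MHC class II members were 0 in limma voom and 1 with no batch term or with a tested minimum of 1 log2 unit, against 3.

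No named gene that was called changed sign, and 267 of its settings missed the threshold against 1038 that kept it. Atp1b1, Ccnd1, Eomes, Irf8, Lrp8, Nkg7 and Tex2 kept their call in every setting run, while Cd74 lost it in 7, Egr2 in 8 and Rasgrp3 in 10 of 23. Sign changes were among uncalled genes. Bcl2 (0.93), Ctss (0.49) and Spry1 (2.05) turned positive in batch 2 alone, Ctss with no filter (0.028) and with only SCAP cKO libraries (0.0031), Plk1 (1.83) in batch 1 alone, Bcl2a1a (-1.51) and Fabp4 (-2.92) turned negative in batch 1 alone, and Fabp4 in limma voom (-0.34). Over left-out replicates the log2 fold change ran from -3.60 to 1.90 for C1qc, -7.70 to 1.62 for Col3a1, -8.45 to 0.46 for Crtam, -0.43 to 0.13 for Ctss, -2.68 to 5.299 for Fabp4, -7.64 to 1.31 for Plk1 and -4.08 to 1.92 for Spry1. The causes were not tested. Depth limits the low side: a lung count of 0 allows 0.768 to 1.29 CPM, so fold sizes of the sparsest falls are bounds.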

Other observations

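Some genes lay wholly above or below the circulating libraries without passing the adjusted test. Over all genes tested 4.19% lay above and 2.68% below, and most of these did not pass. Gpr183, the oxysterol receptor EBI2 that positions B cells in lymphoid tissue, had 190.1, 503, 300 and 162 CPM in the lung libraries, against 84.6, 132, 22.9 and 0 CPM in the circulating libraries (2.70 ± 1.04, adjusted p 0.264). Hacd3, an enzyme of fatty acid elongation, had 211, 104, 66.0 and 47.6 CPM in the lung libraries, against 34.0, 33.9, 0 and 0 CPM in the circulating libraries (3.56 ± 1.20, adjusted p 0.161). All 4 lung libraries were the higher ones for both genes. Zbp1, a sensor of nucleic acids in the Z form, had 139, 82.5, 127 and 106 CPM in the lung libraries, against 47.8, 22.6, 0 and 0 CPM in the circulating libraries (3.19 ± 1.43, adjusted p 0.338). Gbp4, an interferon-induced GTPase, had 203, 237, 93.1 and 285 CPM in the lung libraries, against 49.6, 54.9, 75.4 and 53.3 CPM in the circulating libraries (1.73 ± 0.88, adjusted p 0.396). The death receptor gene Fas was also higher in each lung library (178, 127, 41.8 and 62.4 CPM in the lung libraries, against 23.9, 24.2, 2.47 and 0 CPM in the circulating libraries; 3.51 ± 1.51, adjusted p 0.317). Slc2a1, which encodes the glucose transporter GLUT1, was at 1.15 ± 0.76, adjusted p 0.526 with lung libraries above circulating ones.

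On the other side, Slamf7, a receptor of plasma cells and natural killer cells, had 69.8, 161, 73.3 and 189 CPM in the lung libraries, against 434, 349, 215 and 378 CPM in the circulating libraries (-1.50 ± 0.80, adjusted p 0.422). Tnfaip3, the NF-kB inhibitor A20, had 653, 860.3, 969.9 and 1149 CPM in the lung libraries, against 1252, 1301, 1313 and 1765 CPM in the circulating libraries (-0.65 ± 0.40, adjusted p 0.486). Each lung library was below each circulating one for both. Tnfrsf13b, the receptor TACI, had 175, 133, 278 and 231 CPM in the lung libraries, against 1008, 818, 676 and 40.1 CPM in the circulating libraries, where circulating replicate 4 was below the lung range (-1.72 ± 0.68, adjusted p 0.268). Pcna, the replication clamp, had 148, 207, 454 and 451 CPM in the lung libraries, against 492, 407, 689.6 and 909 CPM in the circulating libraries (-1.08 ± 0.61, adjusted p 0.44), with overlap across batches.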
